A study of Mus musculus with 2 samples.

Results

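Stefin-high mature neutrophils are described here in murine alveolar bone with and without orthodontic tooth movement (OTM). They were chosen cell by cell from shares of the cell's unique molecular identifiers (UMIs, each standing for 1 captured mRNA molecule). A member had at least 0.3% of its UMIs from the stefin genes Stfa2, Stfa2l1, BC100530 and Gm5483 and at least 5% from S100a8 and S100a9. It also had under 1% from the azurophil granule genes Elane, Mpo, Prtn3 and Ctsg, under 0.04% from the cycling genes Mki67, Top2a, Birc5 and Ube2c, and under 3% from the specific granule genes Camp, Ltf and Ngp. The last limit was under 0.1% from the interferon-induced genes Isg15, Ifit1, Ifit3 and Rsad2. Of 4887 barcodes with at least 200 genes and at most 5% mitochondrial UMIs, 394 were members, of which 142 of 2835 came from the control group and 252 of 2052 from the OTM group. The levels of these genes in members are therefore set by the choice, and those of other genes in the same cells may be set by it in part.

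The study asked how F4/80+CD11b+ cells of the alveolar bone change when a tooth is moved. Both groups were C57/B6 J male mice of 8 weeks. In the OTM group a NiTi coil spring pulled the left first molar towards the incisors for a week, and the control group carried no force. Each group gave 1 library of sorted cells from the bone around the molar (10x Genomics 3′ v2 chemistry), and the methods give the mice of both groups together, not the number that went into each library.

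Stefins are small intracellular inhibitors of papain-like cysteine proteases such as the cathepsins. Humans carry a single stefin A gene, whereas mice carry a cluster of near copies that neutrophils transcribe late in their maturation. Mature neutrophils have passed the stages in which azurophil and specific granule proteins are made, and they carry gelatinase granules, chemokine receptors and high levels of the calcium-binding proteins S100a8 and S100a9.

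The 8 stefin A-like genes measured here lie side by side on chromosome 16 (GRCm38, GENCODE vM21), within chr16:36156811-36455392, a stretch of 299 kb. On the plus strand are Stfa2l1 (chr16:36156811-36161953), Gm5483 (chr16:36184212-36188111), Gm5416 (chr16:36210403-36217788) and Stfa1 (chr16:36276951-36285373). On the minus strand are BC117090 (chr16:36321665-36334332), BC100530 (chr16:36359382-36367748), Stfa2 (chr16:36403992-36408457) and Stfa3 (chr16:36450537-36455392). All 8 are annotated as protein coding. Since 4 of these genes chose the cells and the other 4 are their neighbours and copies, the 100 bases before their RefSeq transcript starts (GRCm38.p6, sense strand, 5′ to 3′) are shown for the 7 with an entry, and the capitals mark a run of 12 bases that all 7 share:
Stfa2l1 (chr16:36156711-36156810, plus strand): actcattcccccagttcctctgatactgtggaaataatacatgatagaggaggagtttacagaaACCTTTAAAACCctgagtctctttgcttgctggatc
Gm5483, in RefSeq Cstdc4 (chr16:36184112-36184211, plus strand): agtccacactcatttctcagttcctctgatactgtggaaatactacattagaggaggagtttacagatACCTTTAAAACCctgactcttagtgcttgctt
Gm5416, in RefSeq Csta3 (chr16:36210303-36210402, plus strand): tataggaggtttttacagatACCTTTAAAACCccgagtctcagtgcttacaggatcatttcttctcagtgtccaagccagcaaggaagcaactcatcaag
Stfa1 (chr16:36277048-36277147, plus strand): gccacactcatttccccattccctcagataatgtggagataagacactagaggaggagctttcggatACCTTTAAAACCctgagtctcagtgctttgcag
BC100530, in RefSeq Cstdc5 (chr16:36367571-36367670, minus strand): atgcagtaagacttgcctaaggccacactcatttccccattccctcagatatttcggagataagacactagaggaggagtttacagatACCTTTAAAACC
Stfa2 (chr16:36408364-36408463, minus strand): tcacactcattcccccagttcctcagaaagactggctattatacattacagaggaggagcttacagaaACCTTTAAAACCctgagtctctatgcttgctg
Stfa3 (chr16:36455393-36455492, minus strand): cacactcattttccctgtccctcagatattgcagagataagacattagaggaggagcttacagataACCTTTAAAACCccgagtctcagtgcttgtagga

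The run ACCTTTAAAACC was found once in each of the 7 windows and in 10 of 32851 RefSeq windows of the same length (0.0304%), on either strand. It was picked as the longest run shared by the 7 windows, so its presence in each was set by the choice. The 10 windows include these 7, and the others are those of Cstdc3, Gm39539 and Gm7260. The run lay 36 to 25 bases before the start of Stfa2l1, 32 to 21 before Gm5483 and Stfa2, 33 to 22 before Stfa1 and 34 to 23 before Stfa3. In BC100530 it lay 12 to 1 bases before the RefSeq start, and in Gm5416 80 to 69 bases before it. The RefSeq starts and the GENCODE positions differ for some genes. The windows of BC100530 and Stfa1 lie within the GENCODE genes, and most of the Stfa2 window does. The TTTAAA within the run was in 4.39% of all windows. TTGCNNAA, searched on both strands, was in 1 of the 7 windows and in 3.43% of all. When the windows were set against each other at the run without gaps, Stfa1 and BC100530 were the most alike, with 92.4% identity over 79 bases, and Stfa2l1 and Stfa2 had 87.5% over 96 bases. Stfa3 had between 37.2% and 66.7% identity with the others. Just before the run Stfa3 reads acagata, where Gm5483, Gm5416 and BC100530 read acagat. Without gaps, an added or missing base shifts every base beyond it, so a low identity here need not mean unlike windows. Letters shared between windows are a description of these windows only.

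Members were a larger share of the OTM barcodes than of the control barcodes. They made up 5.01% of the control barcodes (exact Clopper-Pearson 95% interval 4.24 to 5.88) and 12.3% of the OTM barcodes (10.9 to 13.8). Of the cells that met every limit other than the stefin one, here called mature neutrophils, 142 of 354 control cells (40.1%, 35.0 to 45.4) and 252 of 418 OTM cells (60.3%, 55.4 to 65.0) were members. After every cell was thinned to 1500 UMIs, with 0 cells left out, these shares were 41.2% and 57.9%. The shallowest barcode held 1777 UMIs in the control table and 2354 UMIs in the OTM table. The OTM minimum thus lay above the control members' median of 2330 UMIs. Thinning cannot bring back shallower cells that are absent from a table, and their effect on the shares was not tested. No test was possible, since there was 1 library for control and 1 for OTM and cells do not stand in for replicates. All intervals given here cover counting error only, not the spread between mice or sorts.

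The stefin share of members ran from 0.304% to 10.1% in the control library with a median of 0.760%, and from 0.314% to 12.6% in the OTM library with a median of 1.24%. The upper quartile was 1.52% in control and 2.75% in OTM members. No gap marked the limit of 0.3%. The nearest control cells outside and inside it had 0.297% and 0.304%, and the nearest OTM cells 0.299% and 0.314%. In control, 12 cells lay between 0.25% and 0.3% and 10 between 0.3% and 0.35%, and in OTM 6 and 12 did.

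**Figure D1:**
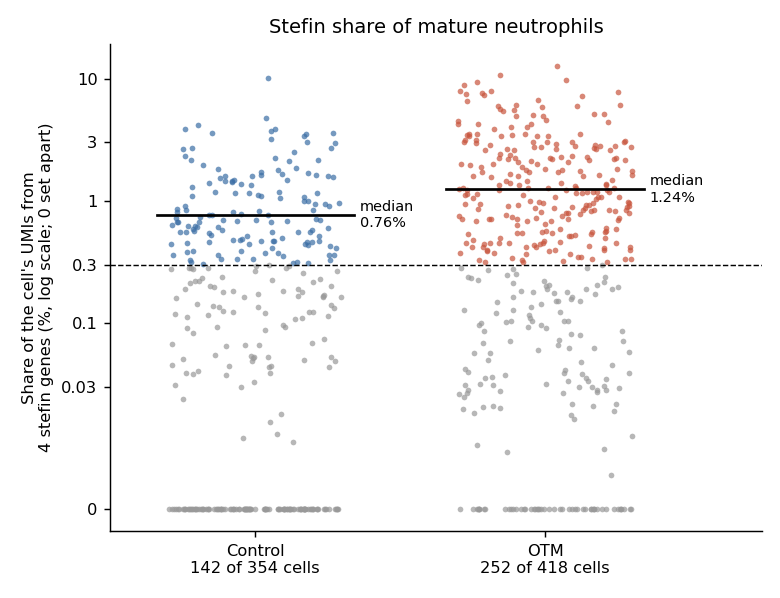
Share of each mature neutrophil's UMIs from Stfa2, Stfa2l1, BC100530 and Gm5483 on a log axis, with cells at 0 set apart at the bottom and 1 point per cell. Coloured points above the dashed line at 0.3% are the members (142 of 354 control and 252 of 418 OTM cells), grey points are the stefin-low cells, and the black bars are the members' medians of 0.760% and 1.24%.

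Members were shallow cells. They had a median of 2330 UMIs and 587 genes in control and 3463 UMIs and 753 genes in OTM, against 3998 and 6861.5 UMIs over all kept barcodes, and summed to 389931 and 1062193 UMIs. Levels below are counts of a gene per 1000000 UMIs of these sums (CPM). UMIs are read at the 3′ end of a transcript, and levels were not divided by gene length. The tables shared 6 barcode sequences, and 0 of these were members. Scrublet called 0 of 2835 control and 137 of 2052 OTM barcodes doublets, 14 of them members, and none were removed.

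Members carried granulocyte transcripts and the CD11b transcript of the sort, and less of the F4/80 transcript than monocyte barcodes. Their 4 markers Stfa2l1, BC100530, Gm5483 and Retnlg, of which all but Retnlg were selection genes, summed to 63883 CPM in control and 70893 CPM in OTM members, against 1036 and 1115 CPM in monocyte barcodes. In stefin-low mature neutrophils they summed to 43661 and 32425 CPM, so most of the contrast with monocyte barcodes was not particular to members. Monocyte barcodes are here those with at least 2 UMIs of Csf1r, the receptor of macrophage colony-stimulating factor, and under 5% S100a8 and S100a9, 328 in control and 249 in OTM. Ly6g, a surface marker of mouse neutrophils, was at 554 and 511 CPM in members and at 8.62 and 7.64 CPM in monocyte barcodes. Adgre1, which encodes F4/80, was at 53.9 and 30.1 CPM in members against 103 and 118 CPM in monocyte barcodes. Itgam, which encodes CD11b, was at 159 and 143 CPM in members against 101 and 119 CPM. After thinning, Itgam was in 24.6% of control and 17.5% of OTM members and in 12.2% and 17.7% of monocyte barcodes. Csf1r, whose UMIs chose the monocyte barcodes, was at 64.1 and 57.4 CPM in members.

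Most lists of other cell types were low in members, several with an uneven spread over cells. The T or NK cell list stood above monocyte barcodes, at 433 and 231 CPM in members against 10.2 and 7.64 CPM. In members 5 of its 6 measured genes were at 0 in both libraries, and the median cell had 397 and 156 CPM. The 8 monocyte markers summed to 2349 CPM in control and 2315 CPM in OTM members, and the 8 macrophage markers to 674 and 1160 CPM. Of 7 osteoclast markers, 6 were at 0 in both libraries, among them Ctsk and Calcr. The 6 B cell markers were at 0 in control members and at 7.53 CPM in OTM members. The 8 erythroid markers were at 398 and 93.2 CPM in members, against 322 and 101 CPM in monocyte barcodes. The markers of MHC class II-high or dendritic cells summed to 2206 CPM in control and 921 CPM in OTM members, but the median cell had 180 and 0 CPM and the highest 61882 and 45795 CPM. A Csf1r UMI was in 17 control members (12.0%) and 41 OTM members (16.3%). These barcodes held a median of 963 and 999 genes, against 575 and 735 in the other members, and monocyte markers at 4775 and 4684 CPM against 1911 and 1661 CPM. Values without them are given beside the main results that move.

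Abundant transcripts outside the selection genes included genes that many cells use, such as Fth1 and Tmsb4x, beside neutrophil genes. Retnlg, a resistin-like secreted protein, was at 53432 CPM in control and 52650 CPM in OTM members (log2 ratio -0.02) and was found in 142 of 142 and 252 of 252 cells. After thinning to 1500 UMIs per cell, Retnlg was still in every member, and in 66.8% of control and 57.4% of OTM monocyte barcodes. It was also in 212 of 212 control stefin-low cells after thinning, so this was not particular to members. The chemokine Cxcl2 was at 21309 and 25256 CPM, the iron store subunit Fth1 at 25953 and 31681 CPM, and the actin-binding Tmsb4x at 26253 and 18461 CPM. The lipase inhibitor G0s2 was at 9158 and 7070 CPM against 319 and 183 CPM in monocyte barcodes. Less abundant were the gelatinase granule enzymes Mmp8 and Mmp9, at 1816 and 933 CPM in control members and at 2651 and 828 CPM in OTM members. Lcn2, an iron-siderophore binding protein of specific granules, was at 3326 and 5079 CPM.

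The 4 selection stefins were not equally high. In control members Gm5483 was at 5439 CPM (exact Poisson 95% interval 5210 to 5676), BC100530 at 3960 CPM (3765 to 4162), Stfa2l1 at 1051 CPM (952 to 1158) and Stfa2 at 380 CPM (321 to 446). In OTM members Gm5483 was at 6740 CPM (6585 to 6898), BC100530 at 9757 CPM (9570 to 9947), Stfa2l1 at 1746 CPM (1668 to 1828) and Stfa2 at 1371 CPM (1301 to 1443). The order of Gm5483 and BC100530 was thus opposite in the 2 libraries. The OTM level was 1.24 times the control level for Gm5483 (exact binomial interval 1.18 to 1.30), 2.46 times for BC100530 (2.34 to 2.60), 1.66 times for Stfa2l1 (1.49 to 1.85) and 3.60 times for Stfa2 (3.05 to 4.31). Since these genes chose the cells, the ratios are descriptions.

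The other genes of the cluster, which the selection did not use, did not move as one. Stfa3 was at 367 CPM in control members and 685 CPM in OTM members (log2 ratio 0.90). BC117090 was at 362 and 730 CPM (1.01, and 0.99 without Csf1r barcodes), and Gm5416 was at 48.7 and 131 CPM (1.39). For Gm5416, 1 control cell held 9 of the 19 control UMIs, and without it the control level was 25.8 CPM. All 3 genes were higher in OTM members. Stfa1 went the other way, with 197 CPM in control and 40.5 CPM in OTM members (-2.28). However, 1 control cell held 47 of the 77 control Stfa1 UMIs, and only 7 of 142 control members had any. Without that cell the control level was 77.5 CPM, and 27 of 252 OTM members had a Stfa1 UMI. Copies in this family can share reads. Of the 98-base stretches of BC117090, BC100530 and Stfa1 transcripts, a cDNA read length usual for this chemistry, 14.1%, 10.0% and 5.35% were identical to a stretch of another of the 8 genes, and none were for the other 5. Values of these 3 genes carry that uncertainty.

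Cstb and Cst3 encode the cysteine protease inhibitors stefin B and cystatin C and lie outside the cluster. Cstb was at 1021 CPM in control and 572 CPM in OTM members (log2 ratio -0.84), and Cst3 at 1711 and 1150 CPM (-0.57). Both were lower in OTM members. Of the 4 cluster genes that the selection did not use, 3 were higher and Stfa1 was lower. In stefin-low mature neutrophils, Cstb was at 852 and 924 CPM.

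**Figure D2:**
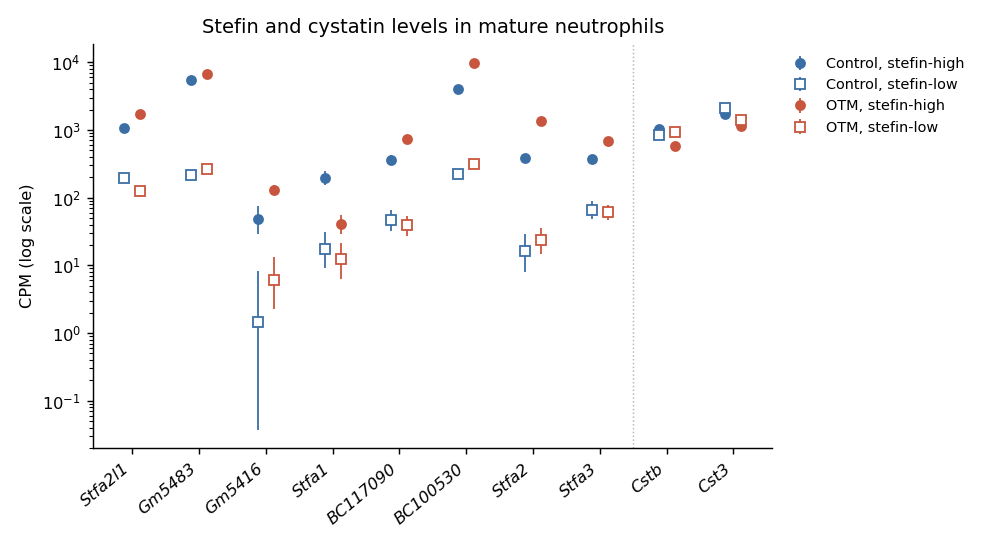
Levels of the 8 stefin A-like genes in chromosome order, left of the dotted line, and of Cstb and Cst3, in CPM on a log axis with exact Poisson 95% intervals. Filled circles are stefin-high and open squares stefin-low mature neutrophils, blue for control and red for OTM. BC100530 was at 3960 CPM in control and 9757 CPM in OTM members, and Stfa1 at 197 and 40.5 CPM.

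Of the stefin UMIs in members, 4603 in control and 22519 in OTM over the 8 genes, Gm5483 took 46.1% in control and 31.8% in OTM. BC100530 took 33.5% and 46.0%, Stfa2 3.22% and 6.47%, and Stfa1 1.67% and 0.191%. The other stefins took nearer shares, with Stfa2l1 at 8.91% and 8.24% and Stfa3 at 3.11% and 3.23%. In stefin-low cells Stfa2l1 took 25.2% and 14.7% of the stefin UMIs. The 4 selection genes took a larger share of all UMIs in the OTM library in other stages as well, with 0.109% in control and 0.521% in OTM specific-granule stage neutrophils and 0.349% and 1.37% in neutrophils set aside by the interferon limit.

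Single members did not share 1 stefin profile. At least 20 stefin UMIs were found in 81 control and 215 OTM members, and in these Gm5483 was the top gene in 50 control and 86 OTM cells, and BC100530 in 29 and 119. Among the control cells, 45 had both genes, 18 had Gm5483 without BC100530 and 17 had BC100530 without Gm5483. Among the OTM cells, 163 had both, 17 had Gm5483 only and 35 had BC100530 only. With 20 UMIs, a count of 0 allows a share of up to 15%, so a cell counted here as lacking a gene held it at most as a minor stefin. At 50 or more stefin UMIs, where a count of 0 allows up to 6%, 4 of 28 control cells and 14 of 131 OTM cells lacked 1 of the pair, being 2 and 3 cells with Gm5483 only and 2 and 11 with BC100530 only. A single gene held at least 90% of the stefin UMIs in 23 of 81 control and 15 of 215 OTM cells. Control members had fewer stefin UMIs, with a median of 22 against 54, so these shares are not at matched depth.

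More of the 4 selection genes were found together in OTM members. In control, 41 of 142 members had UMIs of 1 of them, 59 of 2, 31 of 3 and 11 of all 4. In OTM, 26, 63, 78 and 85 of 252 did. After thinning to 1500 UMIs, all 4 were found in 4.23% of control and 25.8% of OTM members. Thinning matched total UMIs and not stefin UMIs, and the 4 genes took 1.08% of control and 1.96% of OTM member UMIs. A higher stefin share alone brings more of these genes into a cell's counts, so these shares are descriptions. Free RNA can put a UMI into any droplet. After the same thinning, 94.2% of control monocyte barcodes had 0 UMIs of these genes, and the share with BC100530 was 2.1% and 4.8% there against 62.7% and 84.9% in members. BC100530 was a selection gene, so its higher share in members was set by the choice. Median depths before thinning were 4592 and 7843 UMIs in monocyte barcodes.

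Between the libraries, 57 of the 1152 genes with at least 100 UMIs over both sums were at least 2-fold higher in OTM members (4.95%) and 21 at least 2-fold lower (1.82%), without the selection genes. With TMM scaling these counts were 96 and 10, since it moved the median log2 ratio of all genes from 0.02 to 0.23. The 57 genes were all past 2-fold under it, as were 10 of the 21. With 1 library a condition, mouse, sort and library cannot be told apart from force in any of these ratios. Many of these genes also differed between the libraries in other cells, and examples are given.

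Asprv1, an aspartic protease first known from skin, was at 110 CPM in control and 833 CPM in OTM members (7.47-fold, 5.56 to 10.5). It was found in 19 of 142 control (13.4%) and 106 of 252 OTM members (42.1%), and in 0.61% and 8.4% of monocyte barcodes. Thinned, the shares in members were 9.15% and 31.3%. In stefin-low neutrophils Asprv1 was at 103 and 323 CPM, so that the log2 ratio was 2.90 in members and 1.65 in stefin-low cells. The difference between these ratios was not tested.

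Saa3, an acute phase serum amyloid A protein, had the highest ratio, with 28.2 CPM in control and 1355 CPM in OTM members (log2 ratio 5.52, 45.9-fold, 26.8 to 96.4). It was found in 9 of 142 control and 146 of 252 OTM members. Of the 1439 OTM UMIs, 1 cell held 430 (29.9%) and 3 cells held at least 50%. Saa3 was higher still in OTM monocyte barcodes (7941 CPM) and stefin-low neutrophils (4234 CPM), and after thinning 27.8% of OTM members and 67.1% of OTM monocyte barcodes had a UMI of it. Chil3, a chitinase-like secreted protein, was at 505 and 2912 CPM (2.52), and at 1465 and 9285 CPM in monocyte barcodes. The protease inhibitor-like Wfdc17 was at 654 and 3614 CPM (2.46), and at 1165 and 2685 CPM in stefin-low cells. For these 3 genes members had smaller thinned shares than monocyte barcodes. Their UMIs were uneven over OTM members. The highest cell had 3.97% of its UMIs from Saa3, 2.55% from Chil3 and 4.39% from Wfdc17, against medians of 0.02%, 0.08% and 0.09%. The part of free RNA in these levels was not tested.

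Cytokines were a small and uneven group. Of the 14 genes of the cytokine list with at least 100 UMIs, 4 were at least 2-fold higher in OTM members and 0 lower, and the list's median log2 ratio was 0.24 against 0.02 over all genes tested, of which 4.95% were higher and 1.82% lower. Without Csf1r barcodes 5 of 12 were higher, with Cxcl1 and Hmgb1 added and Il6 lost. Il1b, the main secreted interleukin 1 of neutrophils, was at 2275 and 4825 CPM (1.08), Il1a at 66.7 and 257 CPM (1.92) and Tnf at 48.7 and 134 CPM (1.42). All 3 were higher in OTM stefin-low cells as well, with Il1b at 2287 and 4393 CPM, Il1a at 19.1 and 288 CPM and Tnf at 64.6 and 135 CPM. Il1a was found after thinning in 6.34% of control and 19.8% of OTM members, and in 1.89% and 27.7% of stefin-low cells. Il6 was at 12.8 and 109 CPM (2.96), from 5 and 116 UMIs, and 69.8% of the OTM UMIs were in barcodes with a Csf1r UMI. Without such barcodes its log2 ratio was 1.65, from 4 and 35 UMIs. Csf3, the granulocyte colony-stimulating factor and not on that list, was at 23.1 and 188 CPM (2.95), and its log2 ratio without Csf1r barcodes was 4.83, from 2 control UMIs. The abundant Cxcl2 (0.25), Ccl3 (0.24), Osm (-0.18) and Ccl4 (-0.25) lay well within 2-fold. Ccl7, a monocyte chemokine, was at 5.13 and 104 CPM, a ratio of 16.2 (5.46 to 169) from 2 control UMIs. It rested on 1 OTM cell with 105 of 110 UMIs, and without barcodes with a Csf1r UMI its log2 ratio was -0.20.

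Receptors that guide neutrophils stood on both sides. Of 21 receptor genes, 3 were at least 2-fold higher in OTM members and 1 was lower, with a median log2 ratio of 0.11. Over all genes tested 4.95% were higher and 1.82% lower, with a median of 0.02. Fpr1, the receptor of formylated bacterial and mitochondrial peptides, was at 344 and 1018 CPM (1.56), and its thinned share of cells was 29.6% and 61.9% against 3.35% and 10.0% of monocyte barcodes. The complement receptor C5ar1 was at 710 and 1581 CPM (1.15) and the chemerin-binding receptor Ccrl2 at 1831 and 3909 CPM (1.09). Cxcr4, which binds CXCL12 and retains neutrophils in marrow, was at 226 and 94.1 CPM (-1.26). Cxcr4 was also lower in OTM stefin-low neutrophils (-1.66), specific-granule stage neutrophils (-1.64) and monocyte barcodes (-1.60). Cxcr2, which drives release from marrow, was at 133 and 162 CPM (0.27), and Csf3r (-0.18), Ly6g (-0.12) and Trem1 (-0.01) were level.

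Of the 9 interferon-induced genes outside the selection, 3 were at least 2-fold higher in OTM members and 0 lower, and the list's median was 0.47. Over all genes tested 4.95% were higher and 1.82% lower, and the median was 0.02. Ifitm1 and Ifitm2, membrane proteins that restrict virus entry, were at 141 and 782 CPM (2.46) and at 946 and 2678 CPM (2.83-fold). Slfn2 was at 382 and 1025 CPM (1.42), while Ifi27l2a (0.02) and Slfn1 (-0.24) were near 1-fold. Ifitm1 was also higher in OTM stefin-low cells, with 153 and 1336 CPM. The limit on 4 interferon-induced genes in the selection removed cells high in this group from both libraries.

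NF-κB targets were 14, of which 2 were at least 2-fold higher and 0 lower (median 0.35 against 0.02 over all genes, of which 4.95% were higher). The endotoxin co-receptor Cd14 was at 5693 and 11710 CPM (1.04) and the superoxide dismutase Sod2 at 367 and 812 CPM (1.14). The inhibitor Nfkbia was at 2680 and 4296 CPM (0.68). With totals that leave out S100a8, S100a9, the selection stefins, mitochondrial and ribosomal protein genes, Cd14 and BC117090 lay just under 2-fold.

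Of 20 immediate early and heat shock genes, 0 were at least 2-fold higher and 2 were lower (median -0.08, and 0.13 with TMM scaling). The shares over all genes tested were 4.95% higher and 1.82% lower, with a median of 0.02. Egr1 was at 546 and 243 CPM (-1.17) and Fosb at 141 and 68.7 CPM (-1.04), while Junb (-0.01), Jund (-0.02) and Dusp1 (0.06) were level and Hspa8 was at 503 and 819 CPM (0.70). Of 6 integrated stress response genes, Ddit3 was lower, at 151 and 75.3 CPM (-1.01), and without Csf1r barcodes Ppp1r15a was past 2-fold higher. With TMM scaling Egr1, Fosb and Ddit3 were less than 2-fold lower.

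Granule and effector genes held few members past 2-fold, as did all genes tested, of which 4.95% were higher and 1.82% lower. Of 11 gelatinase granule and secretory vesicle genes, only Arg2 was past 2-fold, at 264 and 789 CPM (1.57), and Adam8 was at 487 and 253 CPM (-0.95). Of 6 specific granule genes outside the selection, only Chil3 was past 2-fold. Of 4 azurophil genes 0 were, with Ctsc nearest at 94.9 and 190 CPM (0.99). The 7 NADPH oxidase subunits held 0 past 2-fold in either direction, with Cybb at 474 and 296 CPM (-0.68) and Ncf4 at 438 and 751 CPM (0.77). The 5 S100 genes outside the selection, the 11 glycolysis and hypoxia genes, the 19 actin and migration genes and the 9 granulocyte maturity genes likewise held 0, with medians of -0.32, 0.29, 0.20 and -0.02, the last of which was 0.18 with TMM scaling. Among 7 transcription factors Id2 was higher (1.11) and among 11 survival and cell death genes Casp4 (1.33). Without Csf1r barcodes Id2 was at 0.94 and Casp4 had under 100 UMIs.

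**Figure D3:**
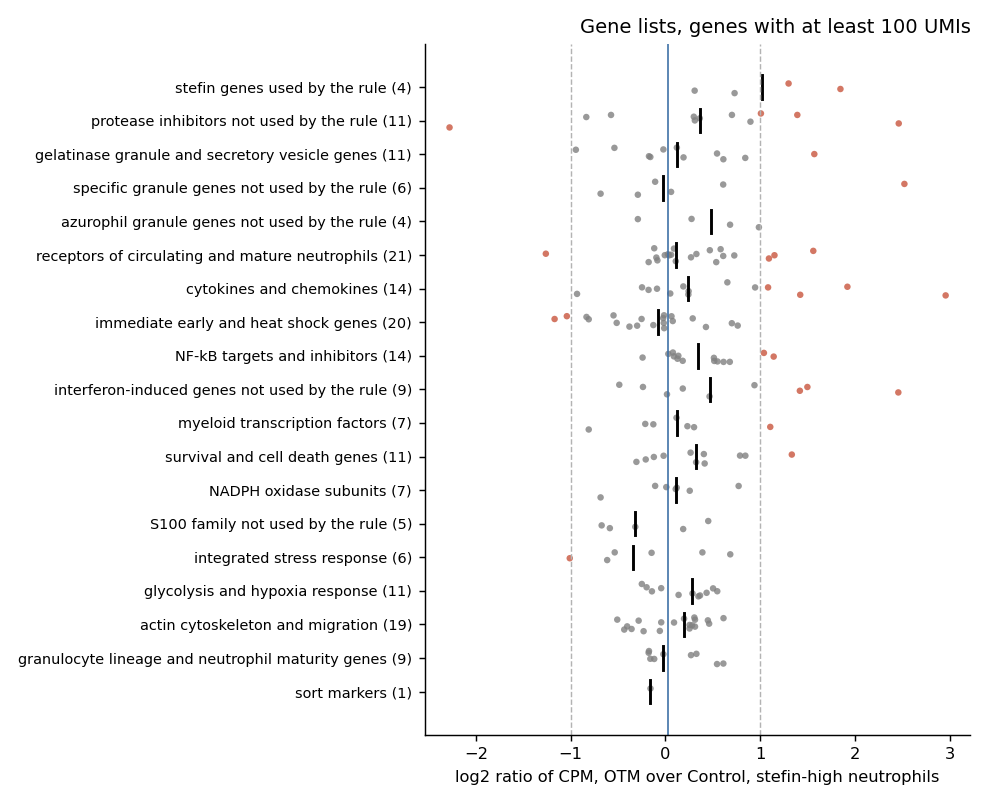
Log2 ratio of CPM, OTM over control, of each listed gene with at least 100 UMIs in stefin-high neutrophils, 1 row per list with the number of genes in brackets. Black bars are list medians, the blue line is the median of all 1152 genes (0.02), dashed lines mark 2-fold, and red points lie past it. Of the 19 lists, 12 held at least 1 gene past 2-fold and 7 held none, and the 4 cytokines past it were all on the OTM side.

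Other genes with the highest ratios were found at low levels. Gpr84, a medium-chain fatty acid receptor, was at 25.6 and 170 CPM (2.67), the scramblase Plscr1 at 33.3 and 198 CPM (2.52), and Alas1, the first enzyme of heme synthesis, at 15.4 and 91.3 CPM (2.46). The adaptor of Toll-like receptors Myd88 (2.15) and the secreted glycoprotein Lrg1 (1.80) were also past 2-fold. Gpr84 was also higher in OTM stefin-low cells, at 24.9 and 202 CPM.

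At the other end, Rgs2, a brake on G protein signalling, was at 192 and 52.7 CPM (-1.86). Lst1 was at 1346 and 555 CPM (-1.28), the thioredoxin-like Txnl1 at 333 and 134 CPM (-1.32), the kinase Plk3 at 169 and 67.8 CPM (-1.32), the lipolysis co-activator Abhd5 at 131 and 52.7 CPM (-1.31) and Tsc22d4 at 123 and 53.7 CPM (0.435-fold). Rgs2 and Lst1 were also lower in OTM stefin-low cells, at 210 and 75.7 CPM and at 1265 and 591 CPM. Antigen presentation genes were carried by few cells. Cd74, the invariant chain, was at 1377 and 531 CPM (-1.38) and H2-Ab1 at 380 and 154 CPM (-1.30). In each library 2 members held at least 50% of the Cd74 UMIs, the top cell alone 42.5% in control and 45.7% in OTM. In OTM 80.9% of them were in Csf1r barcodes, against 10.8% in control, and without those barcodes the log2 ratios were -3.48 and -3.47.

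Over the 57 genes, 47 were still past 2-fold and 56 had the same sign without Csf1r barcodes. Over the 21 lower genes, 18 were still past it and all 21 had the same sign.

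**Figure D4:**
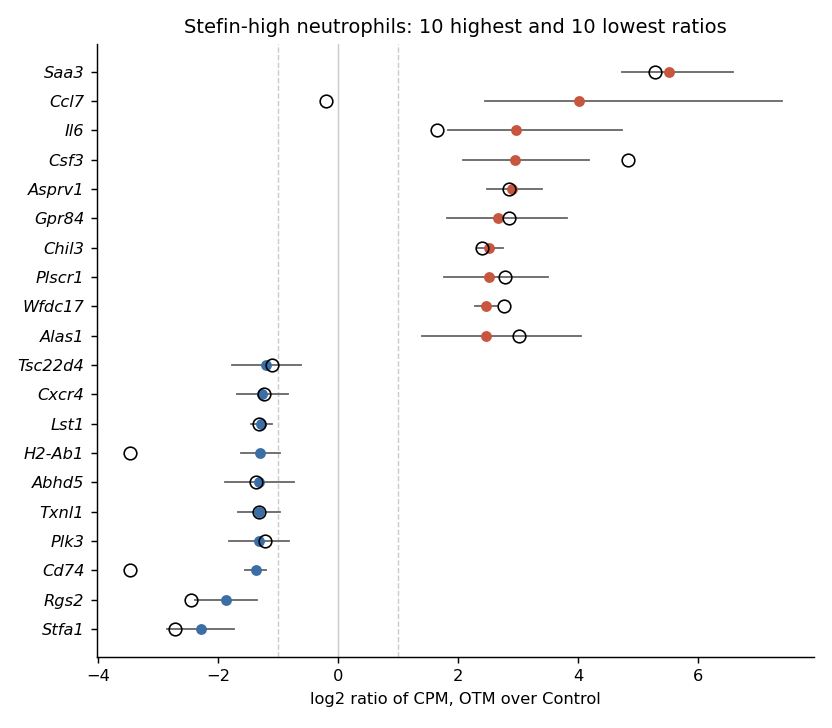
Log2 ratio of CPM, OTM over control, in stefin-high neutrophils for the 10 genes with the highest and the 10 with the lowest ratio, filled points with exact 95% intervals (counting error only). Open circles are the ratios without barcodes that held a Csf1r UMI, and dashed lines mark 2-fold. Ccl7 moved from 4.02 to -0.20 and Cd74 from -1.38 to -3.48, whereas Asprv1 was at 2.90 and 2.85.

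Against stefin-low mature neutrophils of the same library (212 control and 166 OTM cells), few genes set members apart upwards. In control, 2 of 989 genes were at least 2-fold higher in members (0.202%) and 15 lower (1.52%). In OTM, 9 of 1585 were higher (0.568%) and 267 lower (16.8%). With TMM scaling the OTM counts were 61 and 92. BC117090 and Stfa3, copies of the selection genes, were the genes higher in both libraries. BC117090 was 7.61-fold higher in control members (5.22 to 11.7) and 18.5-fold in OTM (13.6 to 26.7), and Stfa3 5.51-fold (3.95 to 7.95) and 11.1-fold (8.57 to 14.8). Asprv1 was 2.57-fold higher in OTM members (2.26 to 2.94) and 1.08-fold in control (0.717 to 1.59). The other genes leading in OTM were Ccl7, Rdh12, Spp1, Nudt4, Crlf2, Sephs2 and Cdc42se1, of which Rdh12, a retinol dehydrogenase, was at 153 and 63.4 CPM in members and stefin-low cells, and Spp1, osteopontin, at 319 and 142 CPM. For Ccl7, 1 OTM member held 105 of 110 UMIs, and without that cell the level was 4.73 CPM. For Spp1, 1 OTM member held 65 of 339 UMIs, and without it the level was 259 CPM, less than 2-fold above stefin-low cells.

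Of the 978 genes with enough UMIs in both libraries, 8 were at least 2-fold lower in members in both, namely Saa3, Ccl2, AW112010, H2-Eb1, Naca, Rps27l, Snrpb and Snrpe. Ccl2, the ligand of Ccr2, was at 131 and 361 CPM in control members and stefin-low cells and at 169 and 430 CPM in OTM. Snrpe, a splicing factor subunit, was at 48.7 and 119 CPM in control and at 49.9 and 169 CPM in OTM. Ribosomal protein genes took 5.82% of member UMIs in control and 5.57% in OTM, against 8.52% and 10.9% in stefin-low cells and 23.1% and 20.8% in monocyte barcodes. Csf1r was at 98.3 and 82.9 CPM in stefin-low cells, above its level in members, and the part of barcodes with monocyte transcripts in these ratios was not tested. With Csf1r barcodes left out of both groups, 7 control and 75 OTM genes were lower in members. The granulocyte maturity list had 0 of 9 genes past 2-fold in either library, with medians of 0.18 in control and 0.45 in OTM against -0.10 and -0.17 over all genes.

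Along the stefin share, some neutrophil genes differed between bands and others were level in control. Mature neutrophils were put into 5 bands, under 0.1%, 0.1 to 0.3%, 0.3 to 0.6%, 0.6 to 1.2% and 1.2% or more. Retnlg was at 42343, 44834, 47662, 54555 and 61226 CPM over the control bands and at 33312, 28091, 44062, 48479 and 59152 CPM over the OTM bands. The lectin receptor Clec4d was at 861 and 888 CPM in the lowest band and at 1282 and 1649 CPM in the highest. Mmp9 was at 855, 745, 909, 949 and 954 CPM over the control bands, and Cxcr2 at 107, 144, 134, 147 and 116 CPM, so neither differed much there. Over the OTM bands Mmp9 was at 601, 464, 888, 804 and 813 CPM, higher above the limit than below it. Cxcr2 was at 100, 128, 173, 192 and 140 CPM over the OTM bands. Stfa3 stayed at or under 237 CPM up to 1.2% and was at 906 and 1212 CPM above it. In OTM cells Asprv1 was at 284, 414, 385, 366 and 1310 CPM, so it stood out in the top band alone, and in control cells it lay between 32 and 131 CPM. Lgals1, a galectin, and Ptma, a small nuclear protein of growing cells, were lower above the limit than below it in OTM. Lgals1 was at 413 and 602 CPM below the limit and at 141, 129 and 63 CPM above it. Ptma was at 706 and 1305 CPM below the limit and at 330, 247 and 148 CPM above it. Over the control bands Lgals1 was at 192, 160, 159, 74 and 19 CPM and Ptma at 419, 330, 500, 384 and 183 CPM. The median cell had 2386.5 UMIs in the lowest and 2116 in the highest control band, and 4033 and 3469 in OTM. All bands are of the cells the members were chosen from, so these series are descriptions.

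**Figure D5:**
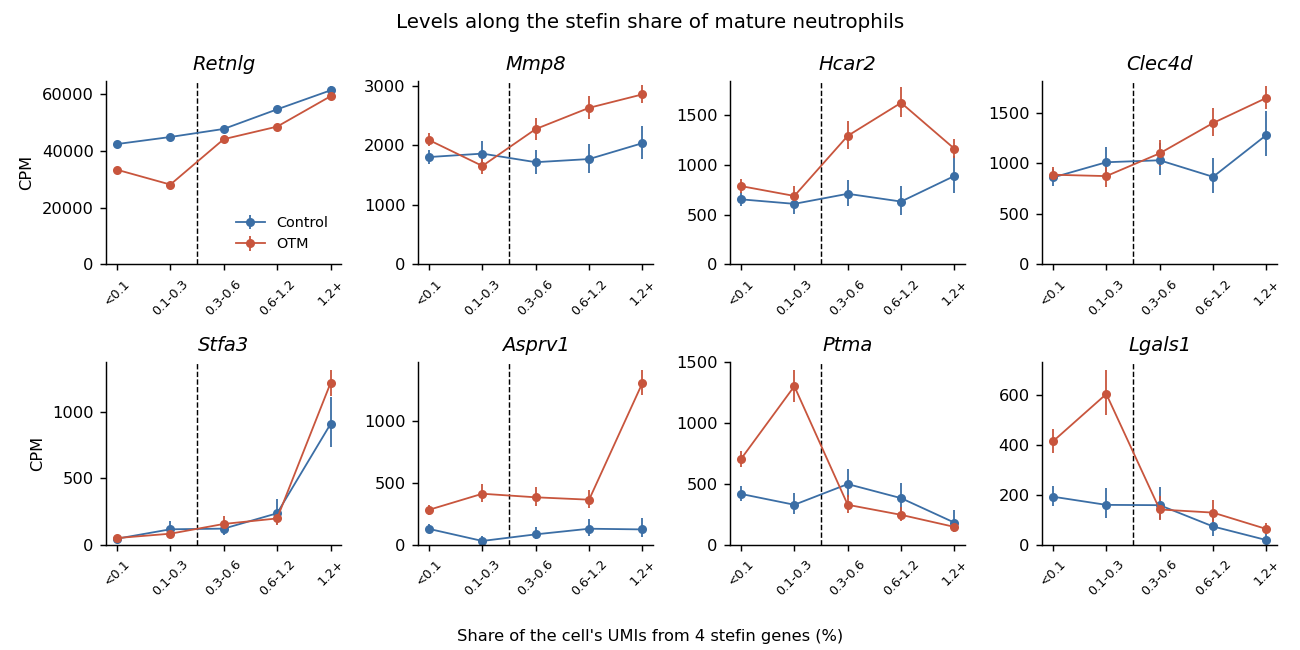
Level in CPM with exact Poisson 95% intervals of 8 genes in mature neutrophils grouped by the share of UMIs from the 4 selection stefins, control in blue and OTM in red. Members lie right of the dashed line at 0.3%. Retnlg reached 61226 and 59152 CPM in the top band, and Asprv1 in OTM cells 1310 CPM.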

How the data were processed

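Single-cell RNA-seq of sorted F4/80+CD11b+ alveolar bone cells was measured in 1 control and 1 OTM library. The authors deposited counts of UMIs per gene and barcode. The submitters' processing notes name Cell Ranger 3.0.0, Seurat 3.0.0 and mm10. The deposited tables held 2863 and 2058 barcodes and 14620877 and 16500733 UMIs. These are fewer barcodes than the cells that the study reports after its quality control.

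Barcodes with at least 200 genes and at most 5% mitochondrial UMIs were kept, and no doublets were removed. Members and gene lists were chosen with earlier results of these data known, the Csf1r alternative and the stefin makeup of single cells after levels had been seen. UMIs were summed over cells of a group and divided by the group's total (CPM). Log2 ratios had 0.5 UMIs added and were given for genes with at least 100 UMIs over both sums, and a gene was counted as higher or lower past 2-fold. Intervals were exact (Poisson for CPM, Clopper-Pearson for shares, conditional binomial for ratios, 95%). Named genes were the 10 highest and 10 lowest ratios of each comparison, the 20 highest CPM, the listed genes, and Asprv1, Ifitm1 and Mmp9, leaving out numbered Gm and Rik, ribosomal protein, mitochondrial and hemoglobin genes, and some were given as counts only. Ptma, Myd88, Lrg1, Naca, Snrpb, Rps27l and the genes shown along the stefin share were chosen after their values were seen.

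Alternatives were TMM factors, totals without abundant classes, other thresholds and filters, thinning, weighting cells equally, Scrublet and leaving out barcodes with a Csf1r UMI. The ratio code was tested on simulated data. Gene positions were from GENCODE vM21 (GRCm38), promoters from RefSeq (GRCm38.p6), which lacked BC117090. Python 3.11.15, numpy 2.4.6, scipy 1.17.1, pandas 2.3.3, scanpy 1.11.5, matplotlib 3.10.9, R 4.3.3 and edgeR 4.0.16 (TMM factors only) were used.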

Additional observations from a re-analysis of the deposited data

How the results depend on the processing

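With 1 library per condition no result has a replicate check, and levels rest on 389931 and 1062193 UMIs, so genes under 100 UMIs were not compared. No paired analysis was possible because each condition had 1 library. Of the OTM over control counts, 57 higher and 21 lower genes became 96 and 10 with TMM scaling, 35 and 11 after thinning (547 genes), 95 and 63 with at least 50 UMIs and 907 and 20282 with no filter, and 10 were lower with at least 200 genes per 1000 UMIs. Stefin-high over stefin-low in control, 2 higher and 15 lower genes became 5 and 60 with at least 50 UMIs and 1220 and 1632 with no filter, and 2 were lower after thinning, 39 at a stefin threshold of 0.5% and 7 without Csf1r barcodes. In OTM, 9 higher and 267 lower became 61 and 92 with TMM scaling, 5 and 164 with cells weighted equally, 3 and 45 after thinning, 23 and 455 with at least 50 UMIs and 1112 and 3646 with no filter, and 79 were lower with at least 200 genes per 1000 UMIs and 75 without Csf1r barcodes. The member share of 5.01% in control became 3.63% at a threshold of 0.5%, 3.74% with specific granule genes under 1.5%, 6.46% with neither the cycling nor the interferon limit and 6.53% without Csf1r barcodes. The share of 12.3% in OTM became 10.2%, 9.41%, 14.8% and 15.5%, and 14.3% with at least 200 genes per 1000 UMIs. The log2 ratio of Ccl7 turned to -0.20 without Csf1r barcodes, which held 95.5% of its OTM UMIs. For the other values, of single genes and of the member share of mature neutrophils, 56 moved by more than their counting interval and 287 did not. The 287 include the settings with at least 50 UMIs and with no filter, which cannot change the ratio of a single gene. Unless the setting itself changed the genes or cells, the cause was not tested.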
